A study of Sus scrofa with 8 samples.

Results

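The genes described here act at the surface membrane of the skeletal muscle fibre: an acetylcholine receptor subunit (CHRNA1), a calcium-activated potassium channel (KCNN3) and a subunit of the sodium-potassium pump (ATP1B1). They were chosen by gene symbol from a list of 5 that also held the muscle sodium channel SCN4A and the voltage sensor CACNA1S. Of the 5 listed genes, 3 were found among the 6765 genes named on the array, with 5 probe sets between them (NCBI gene IDs 396587 for CHRNA1, 397045 for KCNN3 and 396898 for ATP1B1). SCN4A and CACNA1S were not analysed here, because neither is the sole symbol of a probe set in the annotation used. A probe set is the group of short probes that the array uses to read 1 transcript.

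A muscle fibre contracts after acetylcholine opens its receptor at the endplate and the resulting depolarisation sets off an action potential, which SCN4A carries along the membrane. Potassium and chloride channels then bring the membrane back to rest, the sodium-potassium pump restores the ion gradients, and CACNA1S passes the signal on to calcium release inside the fibre. In acute quadriplegic myopathy, a limb weakness that follows intensive care, the fibre membrane can lose its response to direct electrical stimulation. This inexcitability has been linked to altered sodium channel behaviour in animal models that combine denervation with corticosteroids. Transcript levels do not measure excitability, and no membrane recording was part of the data analysed here.

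The RNA was extracted from the biceps femoris, a muscle of the hind limb. The female domestic piglets (Sus scrofa) were labelled as a model of acute quadriplegic myopathy, and each sample was hybridised to 1 porcine expression array. The 4 control samples came from piglets kept under isoflurane sedation, with morphine and ketamine as needed, and mechanical ventilation for 5 days. The 4 corticosteroid samples came from piglets treated in the same way for 5 days that also received bolus doses of hydrocortisone. Glucose, crystalloid fluid, streptomycin and bensylpenicillin were given in both groups. The protocol text of the control samples describes 4 piglets of 25.5 kg mean weight and adds an Escherichia coli endotoxin infusion, which their source label omits, whereas that of the corticosteroid samples describes 8 piglets of 26.4 kg and no endotoxin. The design text also describes an infusion of pancuronium, a blocker of the acetylcholine receptor, without saying which animals received it. Endotoxin, the blocker and any difference in handling therefore cannot be told apart from the corticosteroid in the comparison below. The labels do not say that each sample is a separate animal, so each p-value reflects only the spread among these samples, which may be technical. No unventilated muscle was analysed here, so levels could not be set against those of normal muscle.

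All 8 arrays carried a strong muscle signal, with creatine kinase (CKM) at log2 levels from 13.86 to 14.07, and their median log2 signals lay between 5.863 and 5.965. Levels are log2 values, so that a difference of 1 is a doubling. The groups were compared with limma over 14361 probe sets, those with a mean above 5.27 on the log2 scale, and p-values were adjusted with the Benjamini-Hochberg method over all of them. No probe set passed at an adjusted p of 0.05 (0 of 14361, 0% called, smallest adjusted p = 0.469), and 1363 (9.49%) had an unadjusted p under 0.05. Control replicate 2 lay farthest from its group mean for 37.7% of the probe sets tested, and corticosteroid replicate 4 did so for 34.1%. Rows of the corticosteroid columns were re-assigned to probe IDs as described under the processing, and 4 of the 5 probe sets of the excitability genes lie in rows that this step leaves in place.

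CHRNA1, KCNN3 and ATP1B1 were all measured above the filter, and none differed between the groups beyond the spread between arrays. CHRNA1 and KCNN3 had lower means with corticosteroid, at 0.721 and 0.763 times the control level, and ATP1B1 a higher mean, at 1.21 times. The limma adjusted p-values over all probe sets were 0.614, 0.65 and 0.667. For each of the 5 probe sets the ranges of the groups overlapped. Over all probe sets tested, 5.56% had groups that did not overlap.

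**Figure D1:**
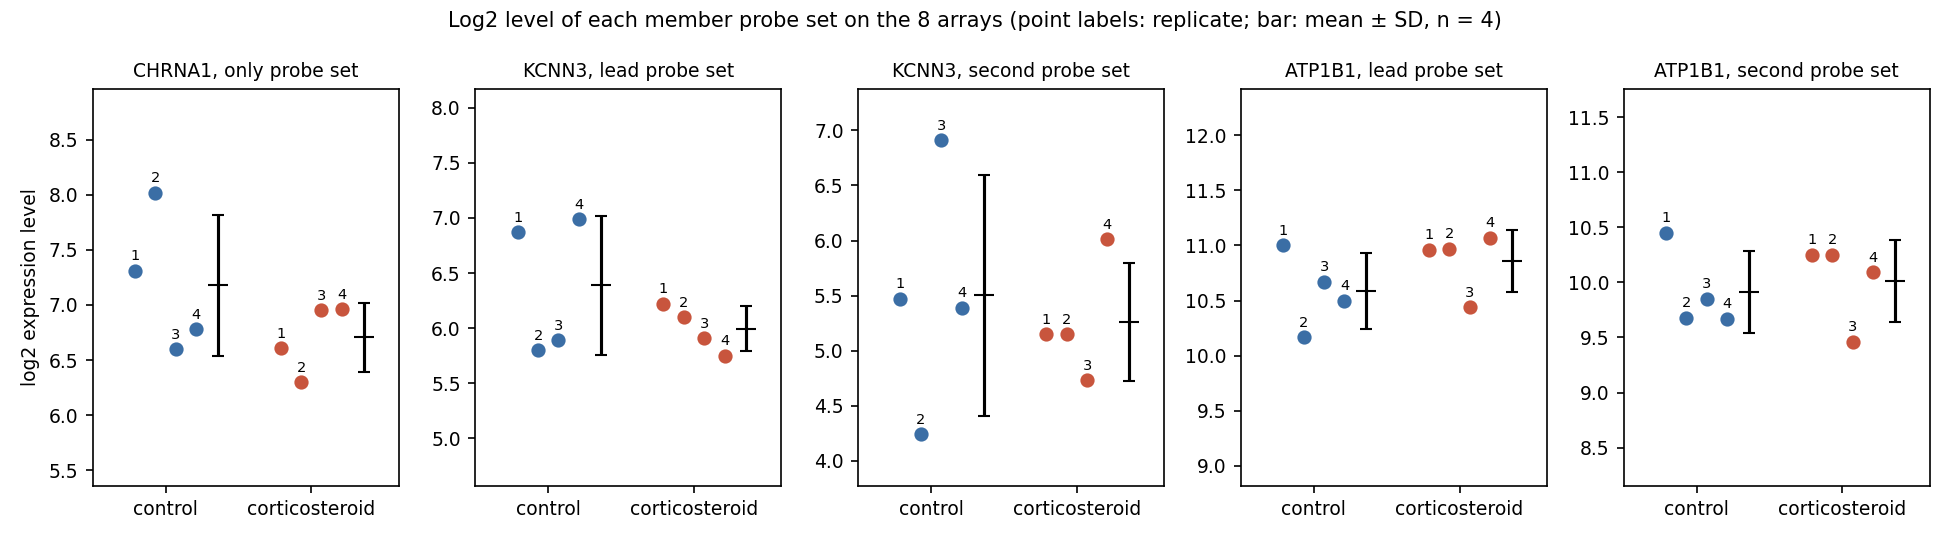
Log2 expression level of the 5 probe sets on each array, with control samples in blue and corticosteroid samples in red. Point labels give the replicate number, and the bar beside each group is the mean ± SD (n = 4). Every panel spans the same number of log2 units, and the groups overlap in all of them. The control points are spread more widely than the corticosteroid points for CHRNA1 and for both KCNN3 probe sets.

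CHRNA1 encodes the alpha subunit of the muscle nicotinic acetylcholine receptor, which binds the transmitter and is part of both the fetal and the adult form. In innervated adult fibres it is made mainly by the nuclei under the endplate, and loss of nerve activity is known to raise its transcription along the whole fibre. Its probe set had log2 levels of 7.31, 8.02, 6.60 and 6.78 on control replicates 1 to 4. The corticosteroid replicates 1 to 4 stood at 6.61, 6.30, 6.95 and 6.96. Control replicates 1 and 2 were thus the highest of the 8 arrays, while control replicates 3 and 4 lay among the corticosteroid samples. All 4 corticosteroid arrays were below the control mean, but only 1 was below every control.

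CHRNA1 averaged 7.18 ± 0.64 (SD, n = 4) on the control arrays and 6.71 ± 0.32 (SD, n = 4) on the corticosteroid arrays, in log2 units. The difference of -0.47 (SE 0.31) had a 95% interval from -1.17 to 0.23, or 0.445 to 1.17 times the control level (limma adjusted p = 0.614, exact two-sided permutation p = 0.286). Both a lower and a slightly higher level lie within this interval. Without control replicate 2 the difference was -0.19, and without control replicate 3 it was -0.66.

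The summed level of macrophage markers was highest on the 2 arrays with the highest CHRNA1, though not for every marker. The macrophage list had 4 of 7 genes on the array (CD163, C1QA, C1QC and MRC1), all above the filter. The log2 of their summed level was 10.08 and 10.91 on control replicates 1 and 2, and 9.34 and 9.50 on control replicates 3 and 4. In the corticosteroid group it ran from 8.68 to 9.85. On control replicate 1, however, CD163 (7.71) and MRC1 (5.38) were lower than on corticosteroid replicates 1 and 2 (8.43 and 8.53 for CD163, 6.31 and 6.35 for MRC1). None of the 4 genes passed the test (smallest adjusted p in limma 0.572). The high level on control replicate 2 was not particular to macrophages. That array also had the highest summed level of smooth muscle (11.85), fibroblast (12.09) and endothelium markers (10.78), though not for every marker. The fibroblast marker COL3A1 was at its lowest there (6.48). The endothelium marker CDH5 (8.68) lay below control replicate 3 (8.82), and the smooth muscle marker TAGLN (9.02) below corticosteroid replicate 1 (9.13). For adipocyte markers control replicate 2 and corticosteroid replicate 2 shared the highest summed level (12.97). Control replicate 2 was the lowest array for muscle fibre markers (15.79, against 15.93 to 16.15) and for fast-fibre markers (15.31, against 15.70 to 16.29). It was not the highest for slow-fibre, neutrophil, T cell, nerve or erythrocyte markers. The part of any of these cells in the level of CHRNA1 was not tested. MYF5, a myogenic factor and the 1 marker of satellite cells on the array of 3 listed, stood at 7.88 on control replicate 2 and between 5.15 and 6.34 on the other arrays.

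The genes whose array pattern was most like that of CHRNA1, among 5405 other genes tested, were PSMB8, a subunit of the immunoproteasome (Pearson r = 0.959 over the 8 arrays), CPQ, a carboxypeptidase (r = 0.944), and IFI35, an interferon-induced protein (r = 0.941). After centring each group on its own mean the values were 0.95, 0.93 and 0.95. All 3 had their highest level on control replicate 2. PSMB8 stood there at 8.67, against 6.47 to 7.50 on the other arrays. These genes were picked for their likeness, so the correlations describe the arrays and carry no p-value.

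KCNN3 encodes a small-conductance potassium channel that opens when intracellular calcium rises. In muscle it is known for its appearance in denervated fibres, where it carries the after-hyperpolarisation that follows an action potential. The lead probe set, the one with the higher mean level, had log2 levels of 6.87, 5.80, 5.89 and 6.99 on control replicates 1 to 4. On the corticosteroid replicates the levels were 6.22, 6.10, 5.91 and 5.75. Control replicates 1 and 4 were the highest arrays, and control replicates 2 and 3 sat within the range of the corticosteroid samples.

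By this probe set the control samples averaged 6.39 ± 0.63 (SD, n = 4) for KCNN3 and the corticosteroid samples 6.0 ± 0.21 (SD, n = 4). That is a difference of -0.39 (SE 0.29) with a 95% interval from -1.04 to 0.25 (limma adjusted p = 0.65, exact two-sided permutation p = 0.343). It was -0.59 without control replicate 2 and -0.19 without control replicate 4. Leaving out control replicate 1 gave -0.23.

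The second KCNN3 probe set lay close to the filter, with a mean log2 level of 5.38 and 4 of the 8 arrays at or below 5.27. It passed only through its control mean of 5.50, against 5.26 with corticosteroid, so nothing is read from its difference or its test. It read 5.47, 4.24, 6.91 and 5.39 on the control replicates and 5.15, 5.15, 4.73 and 6.01 on the corticosteroid replicates. Here control replicate 3 was the highest array and control replicate 2 the lowest, so the order of the arrays was not that of the lead probe set. The 2 probe sets correlated with r = -0.01 over the 8 arrays. The difference by the second probe set was -0.24 (SE 0.50, 95% interval -1.35 to 0.87, limma adjusted p = 0.883). It was -0.66 without control replicate 2, -0.49 without corticosteroid replicate 4 and -0.07 without corticosteroid replicate 3. Without control replicate 3 the probe set fell below the filter, so no difference was fitted. The controls other than replicate 3 lay within or below the corticosteroid range. Since the 2 probe sets ordered the arrays differently, the level of KCNN3 on a single array depends on which is read.

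Of the genes with the array pattern most like that of the lead KCNN3 probe set, the first was MYBBP1A, a nucleolar protein that binds MYB (r = 0.949 over the 8 arrays). GBF1, an exchange factor of the Golgi, was also among them (r = 0.883). MYBBP1A was highest on control replicates 1 and 4, at 8.69 and 8.89, and lay between 8.28 and 8.52 on the others.

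ATP1B1 encodes the beta subunit that the catalytic alpha subunit of the sodium-potassium pump needs to fold and to reach the membrane. Pump content in muscle is known to respond to training, inactivity and corticosteroids. Its lead probe set had log2 levels of 11.00, 10.17, 10.67 and 10.50 on control replicates 1 to 4. The corticosteroid replicates stood at 10.96, 10.97, 10.44 and 11.07. Of these, 3 lay above the control mean, but only corticosteroid replicate 4 was above every control. Corticosteroid replicate 3 lay below all controls except control replicate 2.

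ATP1B1 averaged 10.58 ± 0.35 (SD, n = 4) on the control arrays and 10.86 ± 0.28 (SD, n = 4) on the corticosteroid arrays, in log2 units. The difference of 0.27 (SE 0.22) had a 95% interval from -0.21 to 0.76, or 0.863 to 1.70 times the control level (limma adjusted p = 0.667, exact two-sided permutation p = 0.314). Without control replicate 2, the lowest array, the difference was 0.14. It was 0.41 without control replicate 1 and also 0.41 without corticosteroid replicate 3.

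The probe sets of ATP1B1 tracked each other more closely than those of KCNN3, although they differed in which array was highest and lowest. The second one read 10.45, 9.68, 9.85 and 9.67 on the control replicates and 10.25, 10.25, 9.46 and 10.09 on the corticosteroid replicates. It correlated with the lead probe set with r = 0.86 (Spearman's rho 0.79) over the 8 arrays, and with r = 0.88 within the control and 0.93 within the corticosteroid arrays. Both placed corticosteroid replicate 3 lowest of its group and control replicate 1 highest of its own. The difference by this probe set was smaller, at 0.10 (SE 0.25, 95% interval -0.46 to 0.66, limma adjusted p = 0.903). It ran from 0.02, without control replicate 2 or 4 or corticosteroid replicate 1 or 2, to 0.28 without control replicate 1 and 0.29 without corticosteroid replicate 3. Its row is the 1 that the re-ordering moves. In the table as deposited, its corticosteroid values were 4.62, 4.65, 4.39 and 4.42, and the difference was -5.39.

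**Figure D2:**
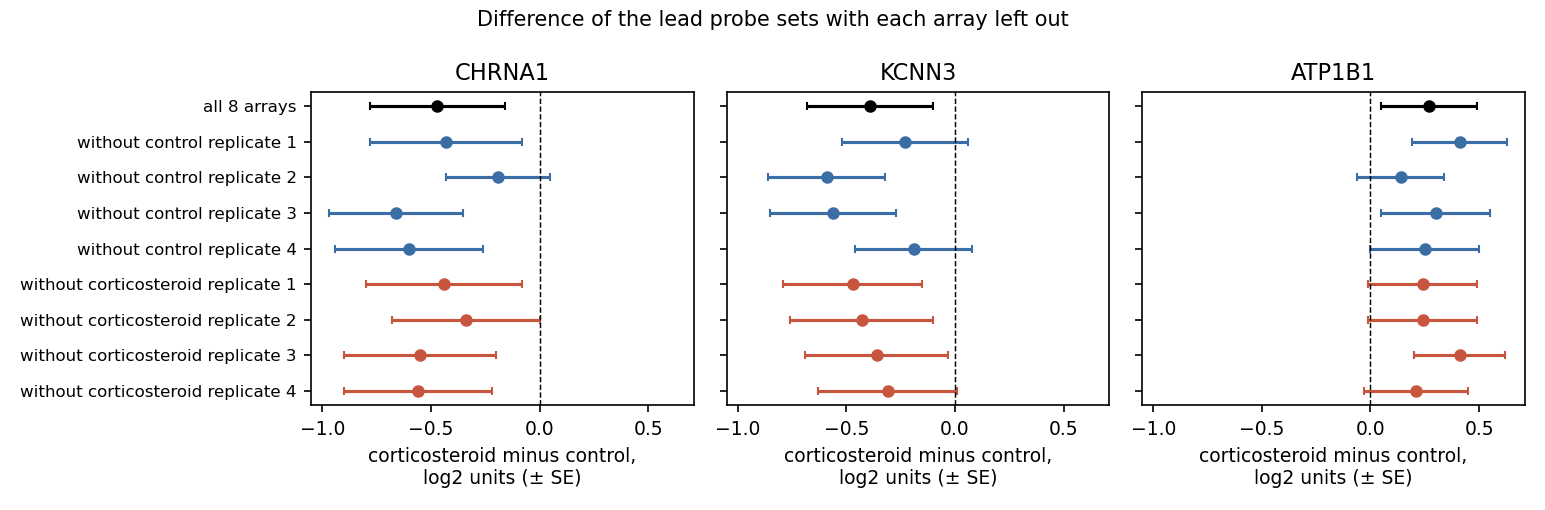
Difference between corticosteroid and control means (log2 units, ± SE from limma) for the lead probe sets, with all 8 arrays (black), without 1 control array (blue) or without 1 corticosteroid array (red). The sign stays the same in every case. The size runs from -0.66 to -0.19 for CHRNA1, from -0.59 to -0.19 for KCNN3 and from 0.14 to 0.41 for ATP1B1.

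The genes most like ATP1B1 across the arrays were AKAP8L, a nuclear anchoring protein (r = 0.944), NOS2, the inducible nitric oxide synthase (r = 0.944), and KLF13, a transcription factor (r = 0.939). All 3 were lowest on control replicate 2. Across the 8 arrays the members themselves did not follow a common order. CHRNA1 correlated with KCNN3 with r = -0.09 and with ATP1B1 with r = -0.56, and KCNN3 with ATP1B1 with r = 0.14.

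Fibre type markers are given beside these results. The summed levels of slow and of fast markers overlapped between the groups, though the levels of some single genes did not. The slow-fibre list was complete, with 6 of 6 genes measured, and the log2 of its summed level ran from 13.20 to 14.34 with corticosteroid and from 14.10 to 15.43 in controls. For the 5 fast-fibre genes on the array of 7 listed it ran from 16.05 to 16.29 and from 15.31 to 16.12. Of the slow-fibre genes 5 had an unadjusted p under 0.05 in limma, all lower with corticosteroid, and of the fast-fibre genes 2, both higher. Over all probe sets tested the shares were 4.71% lower and 4.78% higher. All corticosteroid arrays lay below all controls for 3 of the 6 slow-fibre genes (background 2.51% of probe sets). They lay above all controls for 2 of the 5 fast-fibre genes (background 3.05%). No gene of either list passed after adjustment (smallest limma adjusted p 0.469 and 0.479). Nerve and Schwann cell markers (4 of 8 on the array) ran from 8.40 to 9.17 and from 8.27 to 8.98, with the neurofilament gene NEFL below the filter. The part of any of these cell types in the levels of the excitability genes was not tested, and in whole muscle fewer cells of a type cannot be told apart from less RNA per cell.

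The other genes of membrane excitability were taken from 8 lists grouped by role, with 108 genes in all. The array named 32 of them, the 3 genes above included, and 24 passed the filter on low levels. None of the 24 was called by limma (background 0%), 12 had higher and 12 lower means with corticosteroid, and their median difference was -0.03, against 0.021 over all probe sets tested. At an unadjusted p under 0.05 there was 1 higher gene (KCNMA1) and 1 lower gene (WNK1), where the background was 4.78% and 4.71% of probe sets. WNK1 passed the filter only through the controls, where it was higher, so nothing is read from its count. Without corticosteroid replicate 4 the means were higher for 9 genes and lower for 15.

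**Figure D3:**
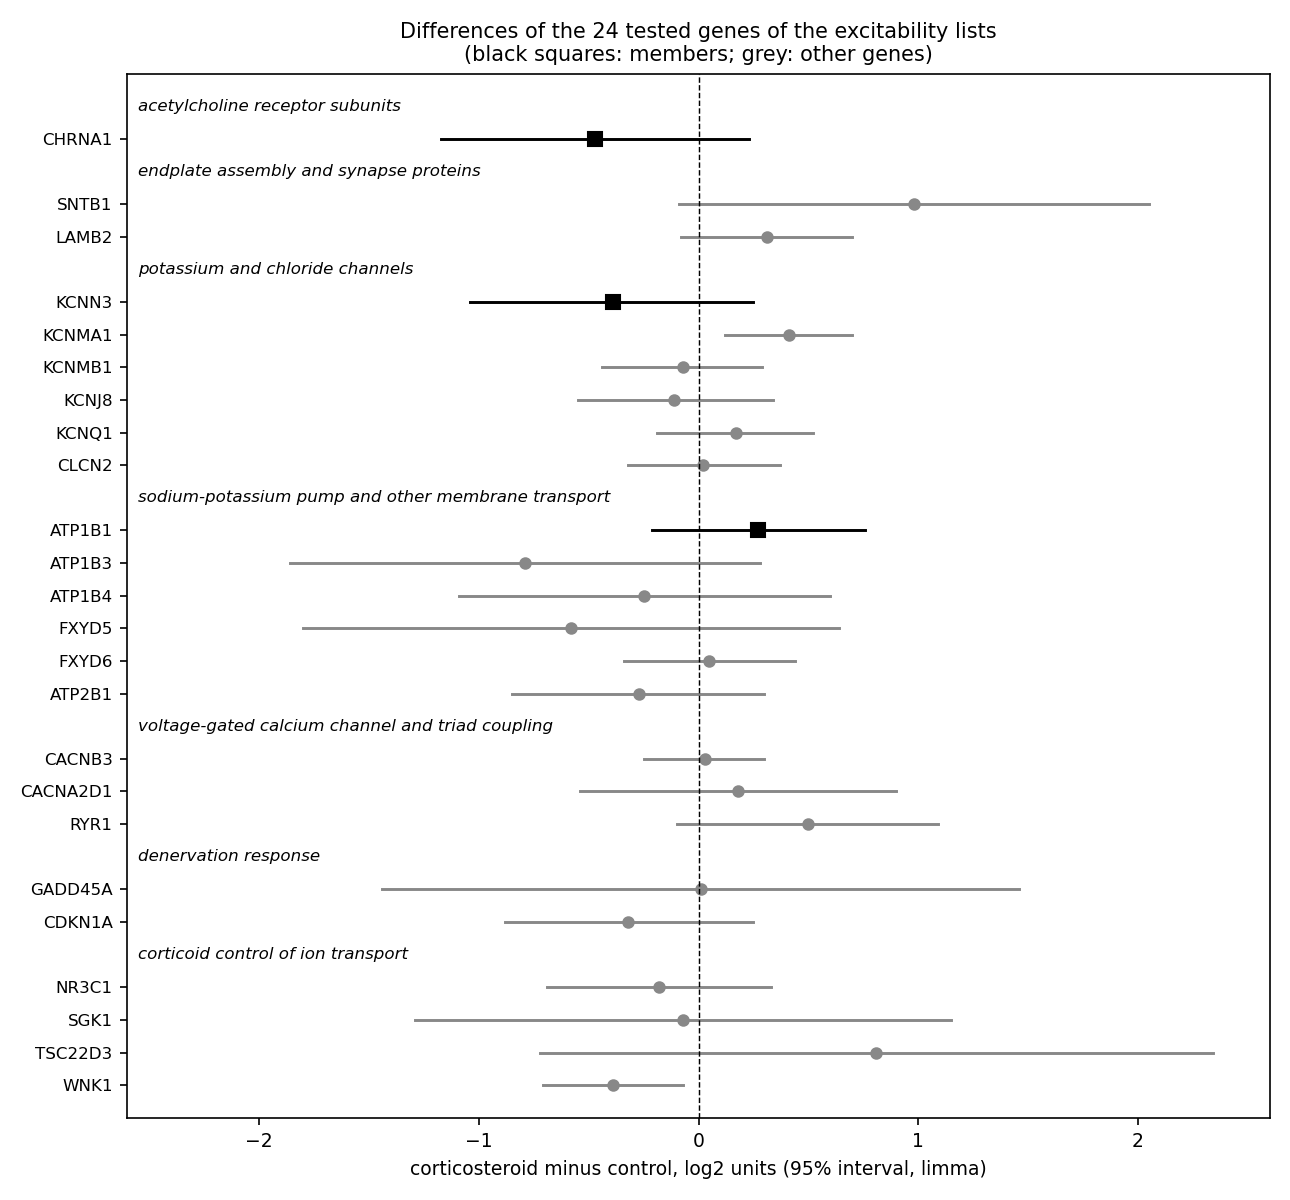
Difference between corticosteroid and control means (log2 units) with its 95% interval from limma for the lead probe set of each of the 24 tested genes, grouped by role. Black squares are CHRNA1, KCNN3 and ATP1B1, and grey circles the other genes. Only the intervals of KCNMA1 and WNK1 leave out 0, and neither gene passed after adjustment.

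Of the acetylcholine receptor subunits CHRNA1 was the only 1 of 5 named on the array, so the switch between the fetal gamma and the adult epsilon subunit was not analysed here. The endplate list had 2 of 16 genes on the array. The mean log2 level of beta-1 syntrophin (SNTB1), an adaptor of the dystrophin complex that binds sodium channels, was 8.68 with corticosteroid and 7.70 in controls. The difference of 0.98 (SE 0.48) did not pass (limma adjusted p = 0.543). Control replicates 2 and 3 were low, at 7.14 and 6.57, whereas control replicates 1 and 4 stood at 8.76 and 8.33, within the corticosteroid range of 8.05 to 9.29. Leaving out each array gave 0.61 to 1.34, the lowest without control replicate 3. The second SNTB1 probe set, with a difference of 1.07, showed the same split among the controls. Laminin beta-2 (LAMB2), which the synaptic basal lamina contains, differed by 0.31 (SE 0.17, limma adjusted p = 0.572).

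Of the 10 sodium channel subunits and anchors only ankyrin-G (ANK3) was named on the array, and it lay below the filter at a mean log2 level of 4.58. The channel that carries the muscle action potential, and the cardiac isoform that appears in denervated muscle, were not named in the annotation used, in which 13732 of 23999 probe sets carry no symbol.

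Among potassium and chloride channels, 8 of 22 genes were on the array and 6 passed the filter, 3 with higher and 3 with lower means. KCNMA1, the large-conductance potassium channel gated by calcium and voltage, was the 1 gene of this list with groups that did not overlap. It read 5.54, 5.17, 5.45 and 5.20 on the control replicates and 5.69, 5.74, 5.80 and 5.78 on the corticosteroid replicates. All corticosteroid arrays lay above all controls, which held for 3.05% of probe sets overall. The difference was 0.41 (SE 0.13, unadjusted p = 0.011) and did not pass (limma adjusted p = 0.479). It stayed between 0.35 and 0.48 when any 1 array was left out, but the level is close to the filter. A second KCNMA1 probe set, below the filter at a mean log2 level of 4.18, differed by 0.23 (SE 0.18) with groups that overlapped. Its beta subunit KCNMB1, a smooth muscle partner, differed by -0.07 (SE 0.16).

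The inward rectifier KCNJ2, which holds the resting potential of muscle and whose mutations cause a periodic paralysis, lay below the filter at a mean log2 level of 5.12. Its levels were 4.89, 4.28, 4.44 and 4.95 in controls and 6.76, 4.45, 5.58 and 5.64 with corticosteroid. Of the corticosteroid arrays, 3 were above all controls and corticosteroid replicate 2 lay among the controls. In the fit without a filter it differed by 0.97 (SE 0.41, limma adjusted p = 0.54), and by 0.58 without corticosteroid replicate 1, the highest array. The pore subunit of a potassium channel gated by ATP (KCNJ8) differed by -0.11, KCNQ1 by 0.17 and the chloride channel CLCN2 by 0.02, with none past the test. Leaving out 1 array turned the sign for KCNJ8 (to 0.02), KCNMB1 (to 0.02) and CLCN2 (down to -0.03). KCNN4, a calcium-activated relative of KCNN3, was below the filter.

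Of the sodium-potassium pump and other membrane transport genes, 8 of 20 were on the array and 6 passed the filter, 2 with higher and 4 with lower means. The pump's catalytic alpha subunits were not analysed here. ATP1B3, another beta subunit, stood at 10.51 on control replicate 2, against 8.04 to 8.39 on the other controls and 7.92 to 8.25 with corticosteroid. Its difference of -0.79 (SE 0.48, limma adjusted p = 0.593) was -0.23 without that array. FXYD5, a small regulator of the pump, followed the same pattern, at 9.09 on control replicate 2 and between 6.23 and 6.71 on all other arrays. Its difference was -0.58 with all arrays and 0.08 without control replicate 2. By its lead probe set ATP1B1 was lowest on that same array, so the beta subunits ATP1B1 and ATP1B3 stood at opposite ends there. By the second ATP1B1 probe set, control replicate 2 (9.68) lay just above control replicate 4 (9.67), and corticosteroid replicate 3 was lowest (9.46).

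ATP1B4, a beta-like protein of muscle that sits in the nuclear envelope, differed by -0.25 (SE 0.38), by 0.06 without control replicate 1, by -0.53 without control replicate 3 and by -0.50 without corticosteroid replicate 4. FXYD6 differed by 0.05 (SE 0.17), and the plasma membrane calcium pump ATP2B1 by -0.27 (SE 0.26). Leaving out each array moved FXYD6 between -0.01 and 0.14, and ATP2B1 between -0.42 without control replicate 1 or corticosteroid replicate 4 and -0.12 without corticosteroid replicate 1. None of these passed the test. FXYD2 and the sodium-calcium exchanger SLC8A1 were below the filter.

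The list for the voltage-gated calcium channel and its coupling to calcium release had 5 of 18 genes on the array, and 3 passed the filter, all with higher means. The ryanodine receptor RYR1, the release channel that CACNA1S opens, read 12.29, 11.07, 11.77 and 12.30 in controls and 12.14, 12.25, 12.39 and 12.64 with corticosteroid. Control replicates 2 and 3 were the lowest arrays, and the other controls lay within the corticosteroid range. The difference of 0.50 (SE 0.26, limma adjusted p = 0.56) was 0.23 without control replicate 2. The auxiliary subunits CACNA2D1 and CACNB3 differed by 0.18 (SE 0.32) and 0.03 (SE 0.12), the latter between -0.02 and 0.07 when each array was left out. Without corticosteroid replicate 4, which at 9.16 was the highest array for CACNA2D1, that gene differed by -0.14.

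**Figure D4:**
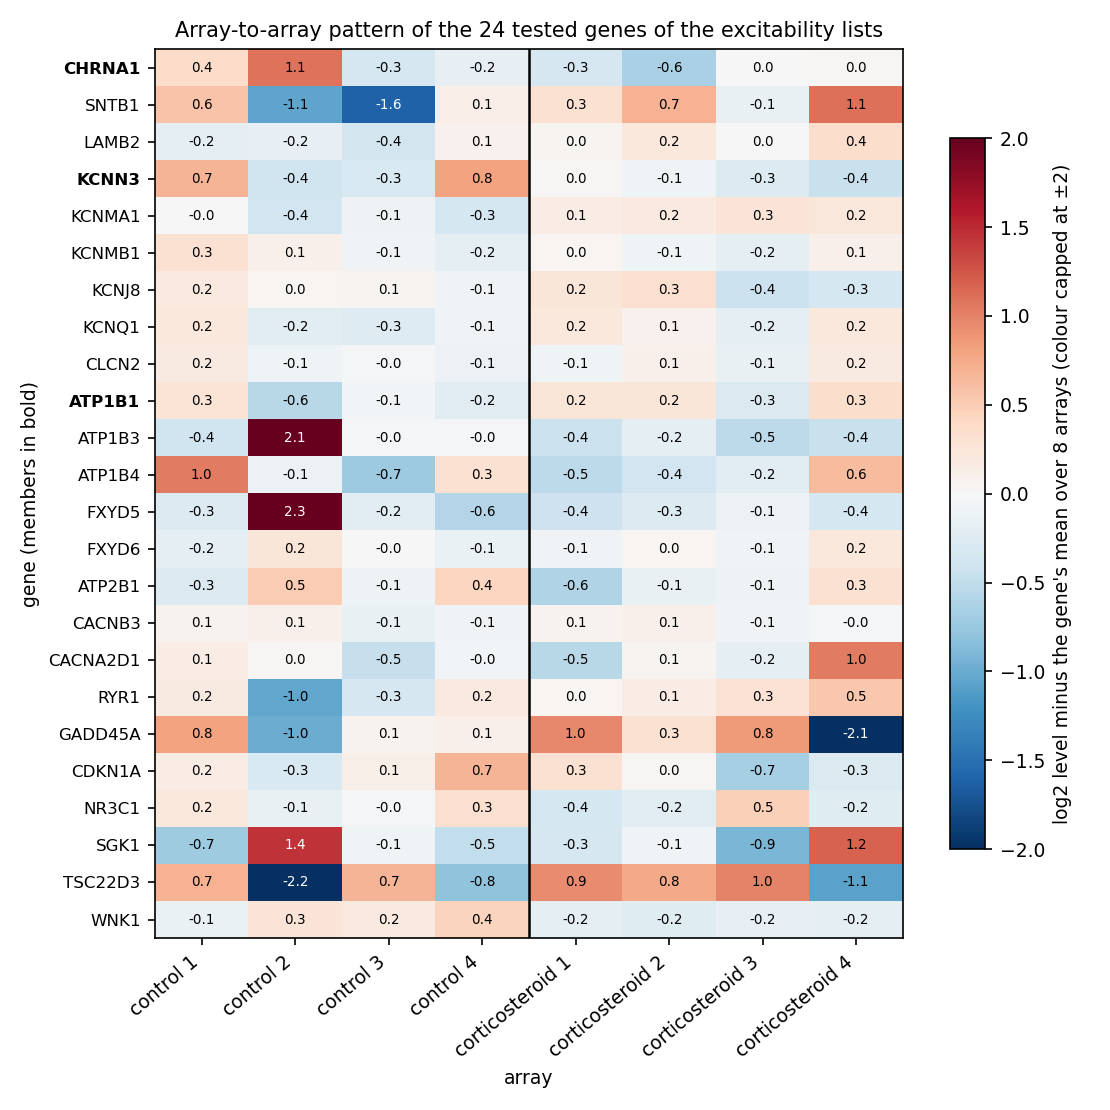
Log2 level minus the gene's own mean over the 8 arrays for the 24 tested genes, with arrays in columns and the group border drawn as a line (colour capped at 2 log2 units). By the lead probe sets, control replicate 2 is the array with the highest CHRNA1, ATP1B3 and FXYD5 and the lowest ATP1B1 and RYR1. Corticosteroid replicate 4 is the array with the lowest GADD45A.

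Denervation is the setting in which CHRNA1 and KCNN3 are best known to be induced, and 3 of the 10 genes of the denervation list were on the array. The adhesion molecule NCAM1, which spreads over denervated fibres, was below the filter, at log2 levels of 5.18, 5.75, 4.62 and 5.16 in controls and 5.43, 4.90, 5.31 and 5.50 with corticosteroid. By this lead probe set NCAM1 was highest on control replicate 2, as was CHRNA1. Its other probe sets, also below the filter, did not all have that array highest. The growth arrest gene GADD45A differed by 0.01 (SE 0.65), with corticosteroid replicate 4 at 9.38 and the other corticosteroid arrays between 11.76 and 12.42. Without that array the difference was 0.71, and without control replicate 2 it was -0.31. The cell cycle inhibitor CDKN1A differed by -0.32 (SE 0.25), and by -0.14 without control replicate 4. None of the 2 tested genes was called.

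Of 7 genes that link corticoids to ion transport, 4 were on the array and all were tested. WNK1, a kinase that controls chloride and potassium transport, read 5.27, 5.65, 5.60 and 5.84 in controls and 5.22, 5.15, 5.24 and 5.22 with corticosteroid. The groups did not overlap, with all corticosteroid arrays below all controls (background 2.51% of probe sets). Their nearest values were 5.24 and 5.27, both at or below the filter level, and the gene passed the filter only through its control mean of 5.59, against 5.21 with corticosteroid. The separation of the groups is therefore no support for a change. Its difference of -0.39 (SE 0.14, unadjusted p = 0.0224) did not pass (limma adjusted p = 0.479) and ran from -0.49 to -0.30 when each array was left out. The second WNK1 probe set, at a mean log2 level of 3.70, was below the filter as well.

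SGK1, a corticoid-induced kinase that stimulates the sodium-potassium pump, differed by -0.07 (SE 0.54). It was high on 1 array of each group, at 9.37 on control replicate 2 and 9.11 on corticosteroid replicate 4, and lay between 7.01 and 7.86 elsewhere. Without control replicate 2 the difference was 0.40, and without corticosteroid replicate 4 it was -0.48. The glucocorticoid receptor NR3C1 differed by -0.18 (SE 0.23), and by -0.37 without corticosteroid replicate 3. TSC22D3, a classical glucocorticoid target, differed by 0.81 (SE 0.68), by 0.22 without control replicate 2 and by 1.30 without corticosteroid replicate 4. It did not pass (limma adjusted p = 0.683). Control replicates 1 and 3 stood at 12.36 and 12.34, within the corticosteroid range of 10.60 to 12.66. The second TSC22D3 probe set differed by 0.35 (SE 0.42, limma adjusted p = 0.782).

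A wider view was taken with every named gene whose symbol marks it as a nicotinic receptor subunit, a voltage-gated sodium channel, a potassium, calcium or chloride channel gene, a subunit of the sodium-potassium pump or an FXYD regulator, a list written after the values were seen. It held 40 genes, of which 21 passed the filter. None was called (limma, background 0%), 14 had higher and 7 lower means, and the median difference was 0.06. Over all probe sets tested, 7581 had higher and 6780 lower means, and the median difference was 0.021. Groups did not overlap for 1 of the 21, KCNMA1, against 5.56% of probe sets overall. Without corticosteroid replicate 4 the counts were 11 higher and 10 lower.

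FXYD7 and KCNIP2 had the largest mean differences among those 21 genes. FXYD7, a pump regulator best known from brain, read 11.39, 10.06, 10.81 and 10.66 in controls and 11.13, 11.38, 11.43 and 12.19 with corticosteroid, a difference of 0.80 (SE 0.31, unadjusted p = 0.0277, limma adjusted p = 0.482) that ran from 0.57 to 1.02 when each array was left out. KCNIP2, an auxiliary subunit of transient potassium channels, read 7.91, 4.53, 4.32 and 6.58 in controls and 6.32, 6.95, 8.88 and 7.81 with corticosteroid. Its difference of 1.66 (SE 0.82, limma adjusted p = 0.543) was 1.22 without control replicate 2 and 1.15 without control replicate 3, and these arrays were more than 1 log2 unit below every other array. Control replicates 2 and 3 were also the lowest arrays for SNTB1 and RYR1.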

How the data were processed

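Per the labels, total RNA was hybridised to Affymetrix arrays. The deposited values are log2 levels per probe set. The submitters' processing notes name MAS5, and the scaling between arrays is not stated in those notes or the labels. The probe IDs are in plain text order. The corticosteroid columns matched the controls in the order that ignores full stops in the IDs (group means over the 9389 moved rows correlated with r = 0.9888, and 0.0997 as deposited), so they were re-assigned to it. That order was found from the values. Pairs of probe sets of 1 gene, over 50 rows apart and with at least 1 in a moved row, gave a check within the corticosteroid arrays. Over 1529 such pairs r was 0.307 re-ordered and 0.044 as deposited, against 0.299 in the control arrays.

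Probe sets were named from the platform table, only where it gives 1 symbol. Where a gene had several probe sets, the brightest over the 8 arrays leads. The 64 reporter probe sets and the lowest 40 percent by mean level were left out. The comparison of the groups used limma 3.58.1 (R 4.3.3; lmFit, eBayes with trend, Benjamini-Hochberg, threshold 0.05), tested on simulated data, and with exact permutation tests over arrays (smallest possible p = 0.0286) in scipy 1.17.1. The number of arrays limits the precision (median SE 0.219). Alternatives covered row order, normalization, filter, floor, variance model, array weights, a replicate block and leaving out each array. The members, role lists and marker lists were chosen with earlier results of these data known. Named genes were all probe sets of the members, the lead probe sets of listed genes, and the 3 genes closest in array pattern to each member, of which 1 is not reported here. FXYD7 and KCNIP2 were chosen after their values were seen. No sequence is shown, since none was used here, and no coordinates are given, since no genome build is named.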

Additional observations from a re-analysis of the deposited data

Results flagged for a closer look

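Among the 26 probe sets of the excitability lists, 4 of 52 groups of 4 arrays had 1 array far from the others by Dixon's test, which flags about 1 in 20 groups by chance. Control replicate 2 was the highest control for ATP1B3 (log2 level 10.51, against 8.04 to 8.39) and for FXYD5 (9.09, against 6.23 to 6.59). Corticosteroid replicate 3 was the highest of its group for NR3C1 (8.65, against 7.81 to 7.94). Corticosteroid replicate 4 was the lowest of its group for TSC22D3 (10.60, against 12.42 to 12.66). No group of CHRNA1, KCNN3 or ATP1B1 was flagged.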

How the results depend on the processing

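With 4 arrays per group, the number of arrays limits what can be seen. The sign of the difference of CHRNA1 and ATP1B1 (20 alternatives each) and of the lead KCNN3 probe set (19, since it falls below a filter at the 60th percentile) was kept in every alternative run, and none passed the threshold. Leaving out each array gave -0.66 to -0.19 for CHRNA1, -0.59 to -0.19 for KCNN3 and 0.14 to 0.41 for ATP1B1. With the rows as deposited, 5454 probe sets were called in place of 0, and the second ATP1B1 probe set differed by -5.39. Leaving out each array called 0 to 1 probe sets, the 1 without control replicate 3. Same-numbered arrays of the 2 groups share only a number (correlations of their deviations -0.246, 0.109, 0.105 and 0.053), and the replicate block gave 0 calls and differences of -0.47, -0.39 and 0.27. The number of probe sets with an unadjusted p under 0.05 was 1363, 828 in unmoved rows only, 2160 with no filter, 903 without control replicate 3, 894 without corticosteroid replicate 4 and 6101 with the rows as deposited.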
